A study of Mus musculus with 20 samples.

Results

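Endothelial identity genes are the genes by which the cells lining blood vessels are recognised. The 34 genes described here were chosen by symbol as known markers of that cell type, and all 34 were found once each among the 32081 genes of the deposited table. They fall into 6 roles. The junction and adhesion genes are Pecam1, Cdh5, Esam, Cldn5, Icam2 and Cdh13. The transcription factors are Erg, Fli1, Ets1, Tal1, Sox17, Sox18 and Sox7, and the genes linked to arterial endothelium are Gja5, Gja4, Sema3g, Bmx and Cytl1. The receptors and signalling genes are Eng, Ptprb, Robo4, Calcrl, Ramp2, Adgrl4, Rasip1, Ecscr and Cyyr1. Emcn, Clec14a, Mmrn2 and Plvap belong to the surface glycoproteins and fenestral diaphragm, and Vwf, Procr and Egfl7 to haemostasis and secreted factors.

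RNA was collected from the aortic endothelium of female Apoe-/- mice of strain B6.129P2-Apoetm1Unc/J, which lack apolipoprotein E and carry high plasma lipids. Every mouse, those given saline included, had 5/6 nephrectomy (removal of most kidney tissue) at 9 weeks of age, 1 retro-orbital treatment 7 weeks later, and collection 1 week after that, on regular chow. The treatments were HDL with LNA92a and LNA489 (dual), HDL with LNA92a, HDL with LNA489, HDL alone, and saline, with 4 mice each. HDL (high-density lipoprotein) was given at 4 mg and each LNA (a locked nucleic acid inhibitor, of miR-92a-3p or miR-489-3p) at 20 mg/kg, so the dual group received 40 mg/kg in all. No group received a control LNA, so an LNA's sequence and the giving of an LNA cannot be told apart, and no group was without nephrectomy. Libraries are named by treatment and animal number, and each is a separate mouse.

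Endothelial identity rests on a small network of transcription factors. ETS factors such as Erg, Fli1 and Ets1 bind sites with a GGAA core near endothelial genes, SoxF factors (Sox7, Sox17 and Sox18) act with them, and arterial cells add gap-junction proteins such as those of Gja5 and Gja4. In the aorta an endothelial sheet carries many of these genes. The wall and the tissue around it also hold smooth muscle, fibroblasts, fat and immune cells. That sheet is not the only possible source of these genes. Some of them, Ets1 and Fli1 included, are also expressed in blood cells. Summed over their genes, marker lists of capillary and lymphatic endothelium also had reads in every library. Single genes of these lists did not all have them. Of the 12 capillary genes, 7 had no read in some library, Car4, Gpihbp1 and Apln included. Of the 7 lymphatic genes found, 4 had none in some library: Prox1, Pdpn, Reln and Mmrn1. The part of the sheet in the values of the endothelial identity genes was not tested. In bulk RNA fewer cells of a type and less RNA per cell cannot be told apart.

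Sequences are shown for the inhibited miRNAs, for the miRNA inside Egfl7, and for the start regions of genes that followed Pecam1 most and least closely across libraries. All are RefSeq entries on GRCm38.p6. In the mature miRNAs the capitals mark the seed, bases 2 to 8, and no seed is shared among these 3. The sequences of the LNAs were not used here.
miR-92a-3p: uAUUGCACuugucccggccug
miR-489-3p: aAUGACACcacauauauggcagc
miR-126a-3p: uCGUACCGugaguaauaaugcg
miR-126a-3p lies inside Egfl7, which encodes a secreted endothelial factor, at chr2:26591402-26591423 on the + strand. A promoter window, 250 bases before to 50 after the start, was available for 18 of the 34 genes (23 windows). Among genes with 1 window, Cytl1 and Bmx had the highest correlation with Pecam1 and Robo4 and Procr the lowest. Capitals mark AGGAAG or its reverse complement CTTCCT, an ETS-type core. Cytl1 is at chr5:37735269-37735568 (+), Bmx at chrX:164258144-164258443 (-), Robo4 at chr9:37401722-37402021 (+) and Procr at chr2:155750967-155751266 (+).
Cytl1: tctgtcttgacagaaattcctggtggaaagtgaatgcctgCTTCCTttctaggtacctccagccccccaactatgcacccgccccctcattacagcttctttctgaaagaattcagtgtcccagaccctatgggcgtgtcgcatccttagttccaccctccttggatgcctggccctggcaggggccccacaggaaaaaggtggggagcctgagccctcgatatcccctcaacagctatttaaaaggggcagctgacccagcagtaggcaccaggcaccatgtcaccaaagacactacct
Bmx: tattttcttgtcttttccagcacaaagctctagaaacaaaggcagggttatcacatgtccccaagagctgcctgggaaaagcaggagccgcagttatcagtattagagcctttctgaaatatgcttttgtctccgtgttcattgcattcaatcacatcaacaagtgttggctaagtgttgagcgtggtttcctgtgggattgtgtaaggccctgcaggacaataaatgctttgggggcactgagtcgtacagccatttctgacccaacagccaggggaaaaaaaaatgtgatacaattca
Robo4: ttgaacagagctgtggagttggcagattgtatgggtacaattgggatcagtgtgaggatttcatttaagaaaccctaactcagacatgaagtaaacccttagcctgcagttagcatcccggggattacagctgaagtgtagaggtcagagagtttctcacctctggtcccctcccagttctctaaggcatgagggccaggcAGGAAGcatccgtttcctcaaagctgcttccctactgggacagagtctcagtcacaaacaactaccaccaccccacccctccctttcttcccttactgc
Procr: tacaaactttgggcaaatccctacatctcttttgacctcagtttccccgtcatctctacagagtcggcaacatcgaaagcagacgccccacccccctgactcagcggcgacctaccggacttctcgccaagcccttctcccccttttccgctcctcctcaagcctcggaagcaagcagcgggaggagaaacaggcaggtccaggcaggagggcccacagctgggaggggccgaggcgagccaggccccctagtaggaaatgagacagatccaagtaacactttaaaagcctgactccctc
The 6 letters stood 210 bases before the start in Cytl1, on the opposite strand, and 49 bases before it in Robo4, on the same strand. They were not in the Bmx and Procr windows. Read on both strands, AGGAAG was in 12 of the 18 genes (66.7%), against 38.4% of 27025 genes with a window. The shorter GGAAG, which every AGGAAG also contains, was in 16 of 18, against 73.9% of all genes. The Sox-type ACAAAG was in 4 of 18 against 21%, ACAATG in 2 of 18 against 14.3%, and the E-box CANNTG in 15 of 18 against 75%. These motifs were chosen with counts known, and a match is a description of the letters only.

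Libraries held 11.6 to 21.4 M reads assigned to genes, and 17378 to 23365 genes had a read. The 34 genes took 0.0604% to 2.57% of these reads (median 0.696%), and the fewest reads behind a value were 17, for Rasip1. The ribosomal transcript Rn18s-rs5 took 3.25% to 22.4% of reads, which lowers FPKM (reads scaled per kilobase of gene length and per M assigned reads, where M is mega) of all other genes. The highest shares were in LNA92a 17 (22.4%), LNA92a 5 (19.1%) and LNA92a 18 (18.2%), while LNA92a 12 had 6.07%. LNA92a 17, 5 and 18 also had the fewest assigned reads (12.1, 11.6 and 11.6 M), so FPKM of the LNA92a group carries this limit. Mitochondrial ribosomal transcripts lower FPKM in the same way. They took 18.7% of reads in LNA92a 5, 14.6% in saline 1, 14.1% in HDL 4 and 12.5% in LNA92a 17. In LNA92a 18 they took 8.27%, in LNA92a 12 7.84% and in saline 9 1.15%. Marker lists of other cells also ranged widely. Summed adipocyte markers (12 genes, led by Ucp1, Pck1 and Pnpla2) ran from 101 FPKM in saline 9 to 4100 in HDL 4, macrophage markers from 665 to 12200, and 20 other pan-endothelial genes (led by Heg1, S1pr1 and Tek) from 91.8 in LNA92a 5 to 1250 in saline 24. Of the 20 pan-endothelial markers 18 had reads in every library, and Exoc3l2 and Nostrin were listed at 0 in at least 1. Adrenal cortex markers (led by Hsd3b1, Cyp21a1 and Star) reached summed levels of 1910 FPKM in saline 2 and 1600 in dual 10. Their highest sums were 10.3 FPKM in LNA92a, 24.4 in LNA489 and 16.8 in HDL mice. Endothelial RNA was thus detected in all 20 libraries labelled aortic endothelium, at levels that differed more than 10-fold between libraries. RNA of fat and immune cells lay beside it, with high adrenal cortex markers in saline 2 and dual 10.

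Pecam1, an adhesion protein of endothelial junctions that platelets and leukocytes also carry, had 316, 245, 41.0 and 700 FPKM in dual mice, 26.4, 38.3, 382 and 488 in LNA92a mice, 83.1, 190, 38.6 and 247 in LNA489 mice, 633, 10.8, 120 and 1010 in HDL mice, and 23.4, 66.5, 195 and 825 in saline mice. The lowest library (HDL 4) and the highest (HDL 23) came from the same group, 93.8-fold apart, and all 5 groups overlapped. Group means were 326 ± 276 FPKM in dual, 234 ± 237 in LNA92a, 140 ± 95.8 in LNA489, 443 ± 464 in HDL and 277 ± 372 in saline (SD, n = 4 each). Cdh5, the VE-cadherin of adherens junctions, ran from 4.51 FPKM in LNA92a 5 to 184 in HDL 23. The claudin gene Cldn5 spanned 27.5-fold, Esam 10.5-fold, Icam2 42.4-fold and Cdh13 80.7-fold between their lowest and highest libraries.

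Erg, an ETS factor that maintains endothelial gene expression, had 16.3, 23.1, 5.59 and 28.1 FPKM in dual mice, 1.86, 4.07, 16.9 and 23.5 in LNA92a mice, 5.56, 18.5, 4.01 and 12.5 in LNA489 mice, 38.6, 1.74, 6.24 and 41.9 in HDL mice, and 3.97, 6.96, 12.6 and 38.3 in saline mice. HDL 23, HDL 3 and saline 24 were the 3 highest libraries, and the groups overlapped. Among the SoxF genes, Sox17 reached 43.1 FPKM in saline 24, Sox18 138 in HDL 23 and Sox7 38.6 in HDL 23. Their lowest values were 0.277 FPKM for Sox17 in HDL 4, 1.38 for Sox18 in LNA92a 5 and 0.856 for Sox7 in saline 1. Tal1, a factor of haematopoietic and endothelial cells, ran from 0.439 FPKM in saline 1 to 20.5 in HDL 23.

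Ets1 and Fli1 had another library order than the other factors. Ets1, which T cells also express strongly, had 14.2, 15.7, 8.53 and 33 FPKM in dual mice, 17.4, 7.91, 13.7 and 9.08 in LNA92a mice, 6.27, 24.9, 14.4 and 27.1 in LNA489 mice, 28.3, 4.18, 90.3 and 19.0 in HDL mice, and 29.6, 9.38, 31.7 and 18.6 in saline mice. HDL 11, which also had the highest summed T and NK cell markers (388 FPKM) and B and plasma cell markers (6540 FPKM), was far above every other library, and HDL 23 and saline 24, which led most genes, were in the middle. Fli1, an ETS factor of endothelium and blood cells, was also highest in HDL 11 (44.9 FPKM) and varied 5.91-fold between libraries.

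Gja5, the connexin 40 gene of arterial endothelium, had 24.2, 35.9, 4.17 and 70.0 FPKM in dual mice, 0.989, 3.38, 29.7 and 40.4 in LNA92a mice, 6.17, 39.3, 3.79 and 12.5 in LNA489 mice, 101, 0.591, 12.9 and 108 in HDL mice, and 3.28, 6.91, 41.4 and 105 in saline mice. The lowest and the highest value, both from HDL mice, were 182-fold apart, and all 5 groups overlapped. Cytl1, a small secreted protein, had the highest mean of the 34 genes (403 FPKM) and the widest span (203-fold), reaching 1410 FPKM in HDL 23 and 1370 in saline 24 with 6.96 in HDL 4. Gja4 (connexin 37) spanned 92.1-fold, the kinase gene Bmx 90.5-fold and the semaphorin gene Sema3g 103-fold.

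Eng, the endoglin co-receptor of TGF-beta family ligands, had 32.1, 62.4, 15.1 and 69.3 FPKM in dual mice, 6.08, 23.4, 33.1 and 46.5 in LNA92a mice, 19.0, 55.0, 13.7 and 26.3 in LNA489 mice, 92.5, 9.10, 17.9 and 102 in HDL mice, and 6.84, 22.1, 53.1 and 98.9 in saline mice. HDL 23 was the highest and LNA92a 5 the lowest, and the groups overlapped. Its exons overlap those of Fpgs, so its reads are uncertain. Ptprb, the phosphatase VE-PTP, had 156, 121, 17.9 and 310 FPKM in dual mice, 11.5, 23.2, 211 and 245 in LNA92a mice, 43.2, 103, 16.6 and 133 in LNA489 mice, 331, 5.41, 54.3 and 481 in HDL mice, and 8.42, 32.9, 116 and 499 in saline mice. Its order of libraries was close to that of Pecam1. Robo4, a roundabout receptor that stabilises vessels, was the weakest of the 34 genes, with 1.15, 2.61, 1.76 and 0.758 FPKM in dual mice, 0.520, 1.73, 0.965 and 2.14 in LNA92a mice, 0.987, 1.46, 0.170 and 1.05 in LNA489 mice, 2.58, 1.22, 0.892 and 3.06 in HDL mice, and 0.657, 1.71, 1.33 and 3.48 in saline mice. LNA489 14 was the lowest and the groups overlapped. Calcrl and Ramp2, which together form an adrenomedullin receptor, spanned 8.19-fold and 15.8-fold. Rasip1, a regulator of vessel lumens, spanned 95.6-fold, and Adgrl4, Ecscr and Cyyr1 spanned 13.7-fold, 30.7-fold and 17.3-fold.

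Emcn, the surface mucin endomucin, had 4.69, 12.9, 3.83 and 9.02 FPKM in dual mice, 1.05, 3.12, 3.58 and 12.6 in LNA92a mice, 1.65, 8.23, 2.64 and 2.26 in LNA489 mice, 13.5, 1.49, 1.35 and 7.12 in HDL mice, and 0.777, 5.35, 5.54 and 7.96 in saline mice. The groups overlapped, and LNA489 13 stood above the other LNA489 mice. Plvap, which forms the diaphragms of fenestrae and caveolae, spanned 35.1-fold with 164 FPKM in HDL 3 as its highest value, and the matrix-linked glycoprotein Mmrn2 and its lectin partner Clec14a spanned 70.4-fold and 58.7-fold. Vwf, the clotting glycoprotein von Willebrand factor, had 87.5, 99.0, 12.4 and 182 FPKM in dual mice, 5.28, 18.8, 109 and 161 in LNA92a mice, 22.3, 129, 11.9 and 70.2 in LNA489 mice, 310, 3.02, 33.3 and 313 in HDL mice, and 7.76, 29.2, 94.1 and 316 in saline mice. HDL 3, HDL 23 and saline 24 were nearly level at the top, HDL 4 was lowest, and the groups overlapped. Procr, the protein C receptor, had the narrowest span of the 34 genes, 4.26-fold, from 8.78 FPKM in saline 1 to 37.4 in HDL 3. Egfl7 spanned 23.5-fold. Reads of 8 genes are uncertain because exons of another gene overlap theirs: Cyyr1, Ecscr, Egfl7, Eng, Gja5, Ramp2, Rasip1 and Sox17.

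**Figure D1:**
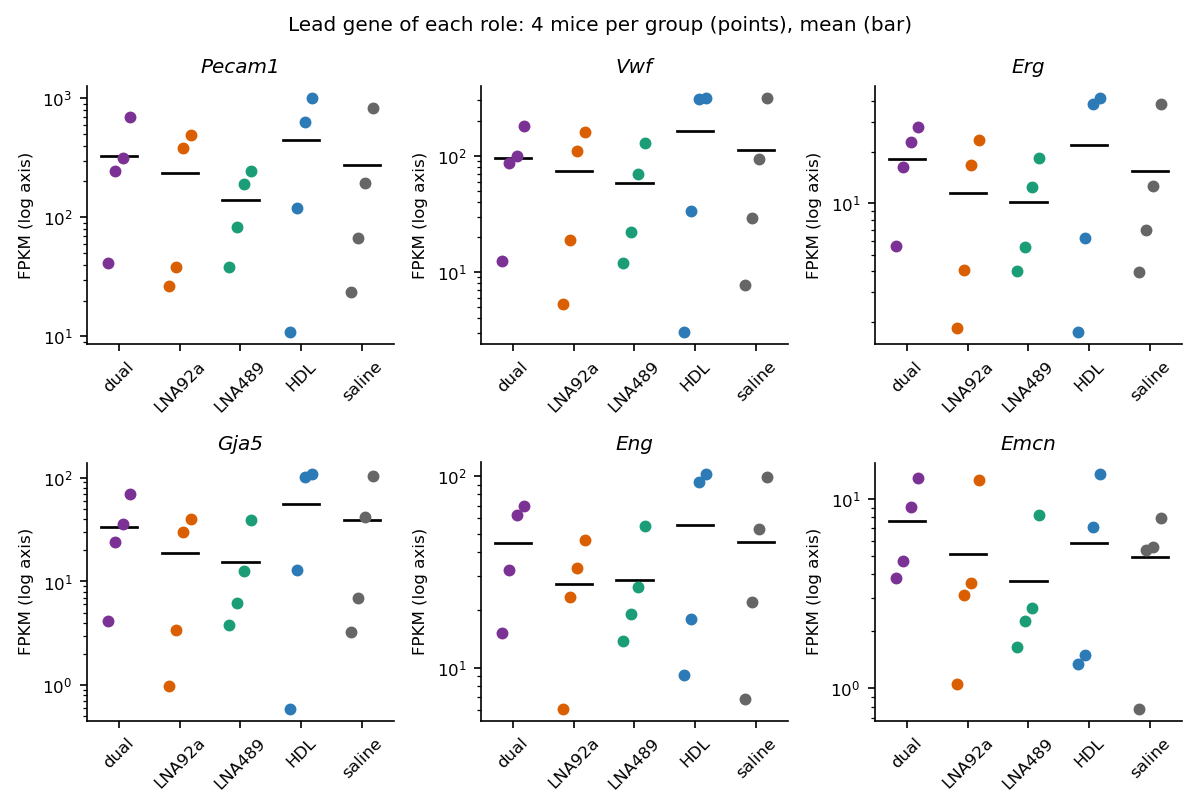
FPKM on a log axis of Pecam1, Vwf, Erg, Gja5, Eng and Emcn, with 1 point per mouse, the group mean as a bar and the groups dual, LNA92a, LNA489, HDL and saline from left to right. All groups overlap in each panel, and for Pecam1 both the lowest (10.8) and the highest (1010) point are HDL mice.

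The same few libraries held the extremes of most genes. Of the 34 genes, 14 were lowest in HDL 4, 10 in LNA92a 5 and 7 in saline 1, and 12 were highest in HDL 23, 11 in saline 24 and 8 in HDL 3. For 23 genes those last 3 libraries were the top 3. Group membership held a median of 4.3% of the variance of a gene among the 34, on the deposited variance-stabilized log2 scale, against 16% over the 16848 genes tested, with 1.28% for Vwf as the lowest and 19.6% for Robo4 as the highest. Labels dealt at random to 5 groups of 4 mice also hold a share of the variance. That share was not computed here, so these percentages are not a measure of treatment effect. The standard deviation over libraries was 1.34 on that log2 scale for the median of the 34 genes, against 0.51 for the median of all genes tested.

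**Figure D2:**
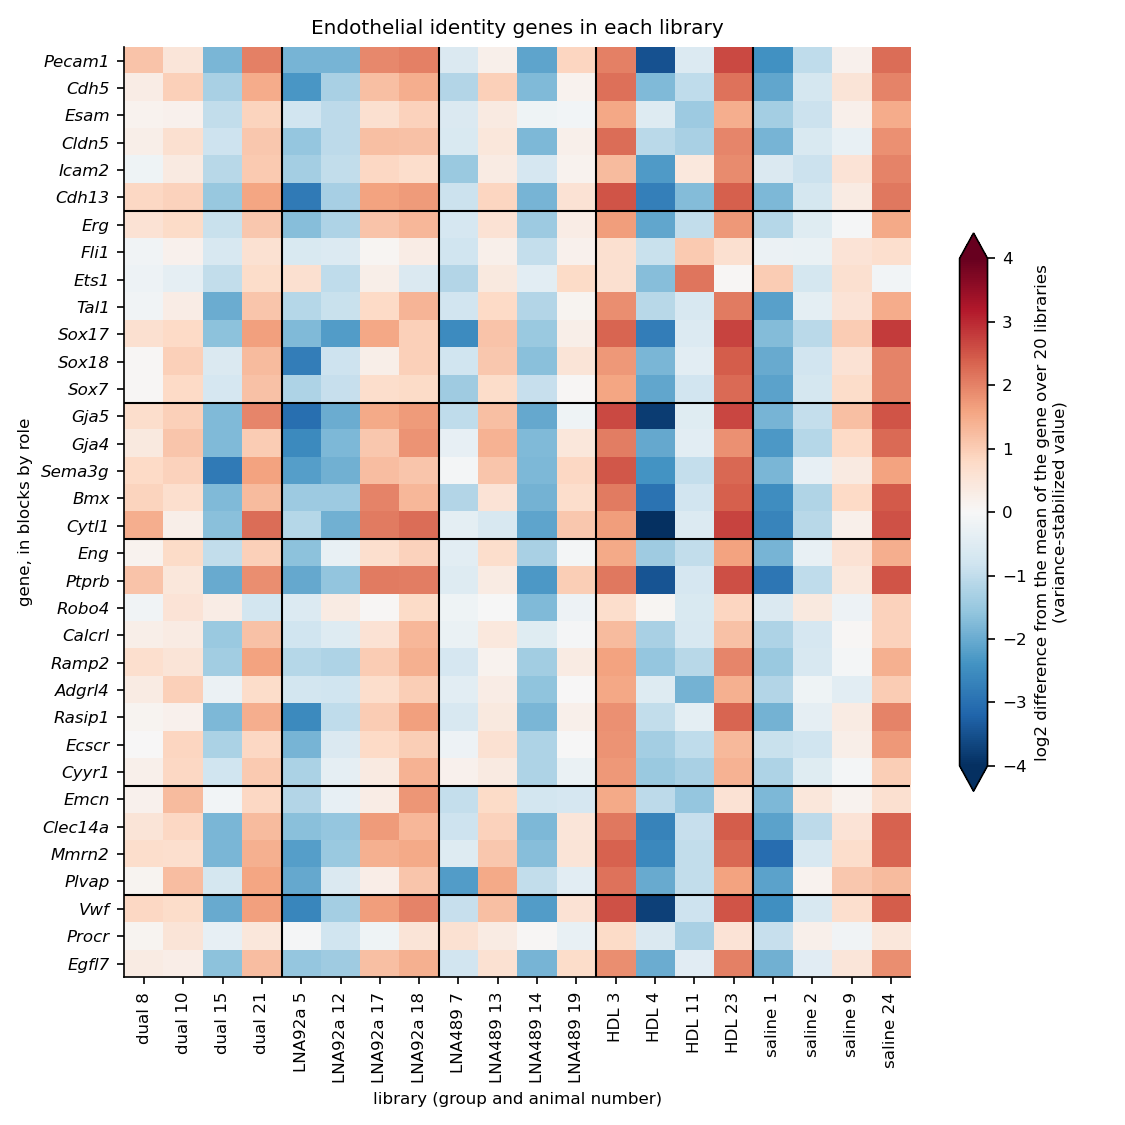
Variance-stabilized log2 value of each of the 34 genes (rows, in blocks by role) in each of 20 libraries (columns, dual, LNA92a, LNA489, HDL and saline from left to right), minus the mean of the gene. HDL 3, HDL 23 and saline 24 are red and HDL 4, LNA92a 5 and saline 1 blue down most of the column, while Ets1 is reddest in HDL 11.

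Across the 20 libraries most genes moved with Pecam1 (variance-stabilized values, 33 relations, each with a 2-sided permutation test of 100000 permutations). Pearson's r was at least 0.9 for 22 of 33 genes. Ptprb was the closest (r = 0.996, Spearman's rho = 0.979, permutation p = 1e-05 for each, the smallest these permutations can give), and r was 0.996 without HDL 4 and saline 1, the libraries farthest from the Pecam1 median. Cytl1 (0.984), Bmx (0.979), Vwf (0.977), Egfl7 (0.977) and Clec14a (0.975) followed, all with permutation p = 1e-05. The lowest were Ets1 (r = 0.297, rho = 0.284, permutation p = 0.202 and 0.222), Robo4 (r = 0.462, rho = 0.438, permutation p = 0.0389 and 0.0554), Procr (r = 0.62, rho = 0.636), Emcn (r = 0.726, rho = 0.753), Fli1 (r = 0.759, rho = 0.771), Adgrl4 (r = 0.809, rho = 0.877) and Plvap (r = 0.811, rho = 0.821). The adjusted p was under 0.05 for 32 of 33 genes by r and 31 by rho, Robo4 and Ets1 being those that missed it by rho. Removing the group means left r for Ptprb at 0.996 and for Ets1 at 0.319. Relations across these libraries share depth and tissue make-up, and whether either sets them was not tested.

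Ets1 varied closely with T cell markers. Its r with the mean of 9 T and NK cell genes (led by Trac, Cd4 and Cd8a) was 0.946 and its rho 0.958 (permutation p = 1e-05 for each), and r was 0.928 without HDL 4 and HDL 11. Fli1 had r = 0.663 (adjusted permutation p = 0.0252) and rho = 0.624 (adjusted permutation p = 0.0685), so its rank relation did not pass, and r was 0.507 without those libraries. Icam2 had r = 0.511 and rho = 0.48 (adjusted permutation p = 0.252 and 0.39), and Pecam1 had r = 0.285 and rho = 0.247. These 34 relations were chosen after the values of Ets1 had been seen. The summed level of that list was 41.6 to 231 FPKM in dual, 26.4 to 107 in LNA92a, 21.8 to 167 in LNA489, 9.27 (HDL 4) to 388 (HDL 11) in HDL and 41.0 to 257 in saline, and of its 9 genes Klrb1c alone was listed at 0 in a library. Without HDL 11, r of Fli1 with Pecam1 was 0.865, and r of Ets1 with Pecam1 ranged from 0.127 without HDL 4 to 0.412 without saline 1. B and plasma cell markers (8 genes, led by Igkc, Ighm and Cd79b) set HDL 11 further apart. Their sum was 6540 FPKM there, against at most 1240 FPKM in any library of the other 4 groups, and their mean on the variance-stabilized log2 scale was 12.69 in HDL 11, against 10.46 in the next library, LNA92a 17. Ets1 had r = 0.628 and rho = 0.451 with that mean (adjusted permutation p = 0.112 and 0.607 over 34 relations), and r = 0.394 without those 2 libraries, and Fli1 had r = 0.265 and rho = -0.027. The part of T cell and B cell RNA in the Ets1 and Fli1 values was not tested.

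**Figure D3:**
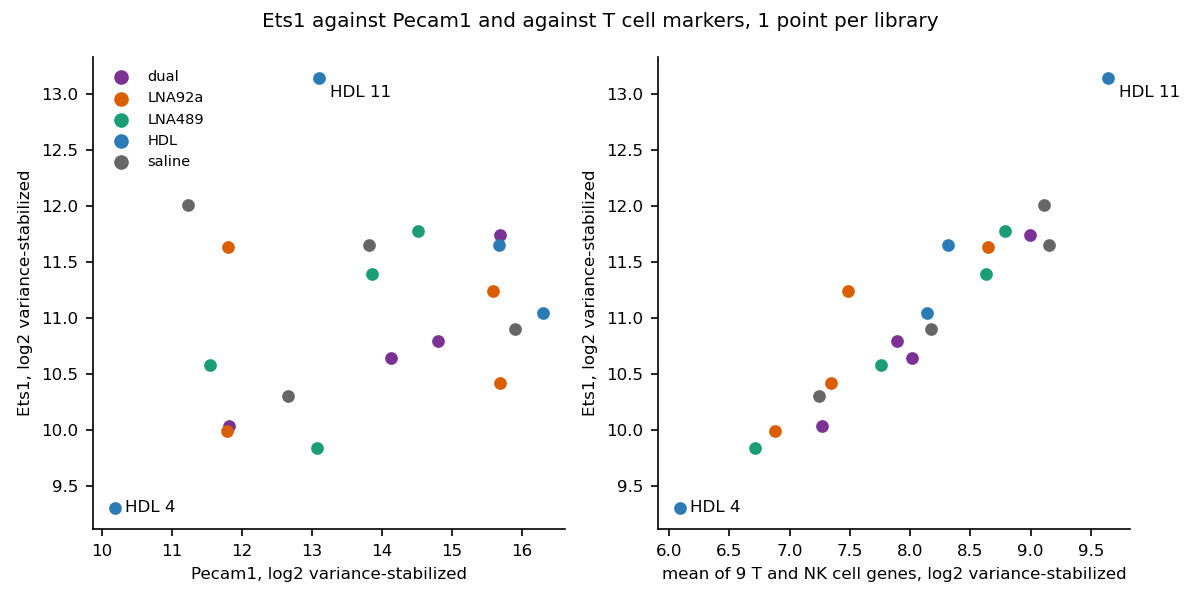
Variance-stabilized log2 value of Ets1 (vertical) against that of Pecam1 (left panel) and against the mean of 9 T and NK cell genes (right panel), 1 point per library, coloured by group. The points scatter on the left (r = 0.297) and lie near a line on the right (r = 0.946), with HDL 4 lowest and HDL 11 highest in Ets1.

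**Figure D4:**
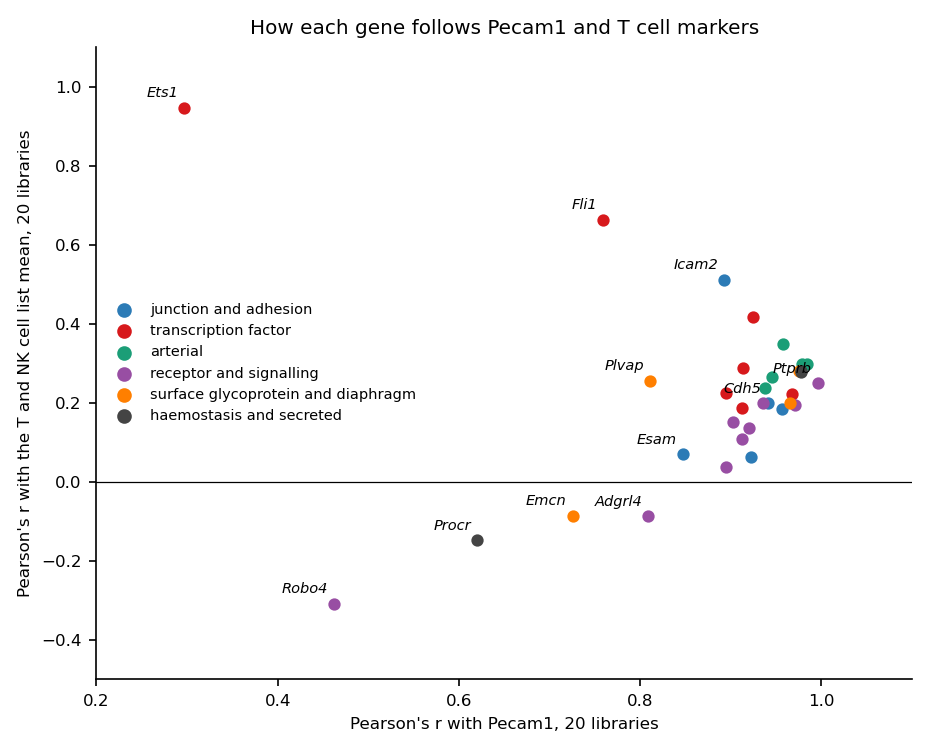
Pearson's r of each gene with Pecam1 (horizontal) and with the mean of 9 T and NK cell genes (vertical) over 20 libraries, 1 point per gene other than Pecam1, coloured by role. Most genes cluster at r of at least 0.9 with Pecam1, and Ets1 lies alone at 0.297 and 0.946.

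Pecam1 had a positive correlation with 3 of 5 other endothelial lists and a negative one with 2. Over these 5 relations, which were chosen after seeing the data, r was 0.965 with the other pan-endothelial mean, 0.911 with the arterial and 0.752 with the venous mean, and -0.725 with the capillary and -0.545 with the lymphatic mean (rho 0.941, 0.872, 0.779, -0.795 and -0.525; adjusted permutation p of r at most 0.0135). The capillary list of 12 genes is led by Cd36, Rgcc and Aqp1, of which Cd36 and Aqp1 are also made by fat and other tissue. The arterial list is led by Mgp, Fbln5 and Nrp1 and the venous list by Vcam1, Selp and Ephb4. The lymphatic mean holds 6 genes of a list led by Lyve1, Sema3d and Mmrn1. The part of other cells in the values of these lists was not tested. Against 10 lists of other cells, r was -0.655 for fibroblast, -0.641 for neuron and Schwann cell and -0.639 for adipocyte markers (rho -0.657, -0.577 and -0.684, adjusted permutation p = 0.0108 for each r), and the other 7 had adjusted permutation p of 0.119 or more. Without HDL 4 and saline 1 these 3 values of r were -0.637, -0.559 and -0.583. All 34 genes had a negative r with the adipocyte mean, from -0.841 for Fli1 (permutation p = 2e-05) to -0.13 for Robo4 (permutation p = 0.589), whose rho was 0.011. Summed adipocyte markers were 128 to 3050 FPKM in dual, 686 to 3780 in LNA92a, 223 to 3260 in LNA489, 125 to 4100 in HDL and 101 to 2400 in saline, and Lep was listed at 0 in at least 1 library.

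The ratios between genes also differed among libraries. The ratio of Pecam1 to Cdh5 in FPKM lay between 1.24 in HDL 4 and 7.17 in dual 8, and that of Cytl1 to Plvap between 1.13 in HDL 4 and 24.2 in LNA489 7. Both ratios were picked with their values known. The log2 difference of Pecam1 and Cdh5 had r = -0.572 with assigned reads (rho = -0.652, permutation p = 0.00875 for r, adjusted p = 0.0263 over 3 relations), and the adjusted p of rho was 0.0072. With the Rn18s-rs5 share r was 0.411 (permutation p = 0.0734, adjusted p = 0.11) and rho 0.508 (permutation p = 0.0236, adjusted p = 0.0354), so the rank relation passed and the linear one did not, and r was 0.28 without LNA92a 5 and LNA92a 17. With the mitochondrial ribosomal share r was 0.057 and rho 0.281 (permutation p = 0.811 and 0.229). The part of depth and of ribosomal RNA in that ratio was not tested. On the genome the 34 genes lie on 16 chromosomes. Within 1000 kb of each other lie 3 pairs: Icam2 and Pecam1 on chromosome 11 (266.1 kb apart, r = 0.893, rho = 0.868), Fli1 and Ets1 on chromosome 9 (93.4 kb, r = 0.68, rho = 0.614) and Robo4 and Esam on chromosome 9 (113 kb, r = 0.453, rho = 0.466). The median r with Pecam1 over 33 genes was 0.922, above that of its neighbour Icam2. Whether nearness on a chromosome has a part in these values was not tested.

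Between groups, no gene of the 34 passed the test. Differences are log2 differences of variance-stabilized means, from limma with 5 group means over 20 libraries, and a gene was tested where its mean FPKM was at least 0.5, which kept all 34. The 3 inhibitor comparisons and HDL against saline all use the same HDL mice, so their values are given side by side and not as separate evidence. A higher HDL mean raises HDL minus saline and lowers each inhibitor group minus HDL, so opposite signs are not a reversal by the inhibitors. The F-test over the 5 groups called 0 of 34 genes (limma, Benjamini-Hochberg adjusted p under 0.05; percent called of all 16848 genes 0), with 0 of the 34 and 283 of all genes (1.68%) at an unadjusted p under 0.05, and limma's voom on recovered reads also called 0, with 271 genes at that unadjusted p. The smallest of its p-values among the 34 were 0.44 for Robo4 and 0.453 for Fli1.

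For the dual inhibitors against HDL alone, 0 of 34 genes and 0 of all genes (0%) were called by limma, with 0 of the 34 and 416 genes (2.47%) at an unadjusted p under 0.05, and voom called 0, with 558 at that p. In no gene of the 34 did the groups fail to overlap, against 1.88% of all genes. The difference was positive in 16 and negative in 18, with a median of -0.04 log2, against -0.03 over all genes, and on log2(FPKM + 0.1) it was positive in 23 and negative in 11. Pecam1 was 0.29 ± 1.32 (SE; 95% interval -2.49 to 3.06), Cdh5 -0.05 ± 1.07 and Vwf 0.18 ± 1.40. The smallest p-values were those of Emcn (0.67 ± 0.70, limma Benjamini-Hochberg adjusted p = 0.998), Fli1 (-0.35 ± 0.40) and Tal1 (-0.71 ± 0.88). The median was -0.76 without HDL 4 and 0.62 without HDL 23. Of the 20 other pan-endothelial genes 10 had a positive and 10 a negative difference (median -0.03 log2). Differences were positive in 8 of 12 arterial, 4 of 5 venous and 10 of 11 capillary genes tested (0.06, 0.43 and 0.19). In 4 of 6 lymphatic genes tested they were negative (-0.26). In the same comparison 12 of 12 adipocyte, 10 of 10 fibroblast and 9 of 10 striated muscle markers had a positive difference (medians 1.09, 0.61 and 0.83 log2), 11 of 13 macrophage markers too (1.17), and 8 of 8 B and plasma cell markers a negative one (-0.92), with 0 called. Adrenal cortex markers, high in dual 10, had a positive difference in 6 of 6 genes tested (median 1.46), also with 0 called. So had 8 of 9 erythroid and platelet genes tested (1.05), with 0 called. The part of all these cells in the values of the 34 genes was not tested. With the adipocyte mean as a covariate the median of the 34 genes was 0.59, and with limma's arrayWeights it was -1.23, in each case with 0 genes called.

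For LNA92a against HDL alone, 0 of 34 and 0 of all genes (0%) were called by limma, with 0 of the 34 and 595 genes (3.53%) at an unadjusted p under 0.05, and voom called 0, with 488 at that p. No gene of the 34 had groups that did not overlap, against 2.22% of all genes. The difference was positive in 4 and negative in 30, with a median of -0.33 log2, against -0.06 over all genes, of which 44.2% were higher. Pecam1 was -0.11 ± 1.32 (95% interval -2.88 to 2.67), Cdh5 -0.65 ± 1.07 and Vwf -0.20 ± 1.40. Fli1 was at -0.54 ± 0.40 (limma Benjamini-Hochberg adjusted p = 0.867), Sox18 at -1.08 ± 0.98 and Rasip1 at -0.92 ± 0.99. The median was -1.16 without HDL 4, 0.16 without HDL 23 and 0.61 with the adipocyte mean as a covariate, and -0.77 on log2(FPKM + 0.1), where the median of all genes was also -0.47 and 21.4% of them were higher. The Rn18s-rs5 share was highest in LNA92a 17, 5 and 18, and its part in that FPKM shift was not tested. Nor was the part of the mitochondrial ribosomal share. With arrayWeights the median of the 34 genes was -1.46, again with 0 genes called. Other endothelial lists lay both ways. Differences were negative in 17 of 20 other pan-endothelial and 11 of 12 arterial genes (medians -0.27 and -0.19 log2). They were positive in 3 of 5 venous, 11 of 11 capillary and 5 of 6 lymphatic genes tested (0.12, 0.93 and 0.71). Of the markers of other cells, 12 of 12 adipocyte, 10 of 10 fibroblast and 8 of 10 striated muscle genes had a positive difference (medians 2.00, 1.49 and 2.17 log2), and 8 of 8 B and plasma cell and 8 of 8 T and NK cell genes a negative one (-0.52 and -0.51), with 0 called. Erythroid and platelet markers had a positive difference in 9 of 9 genes tested (0.89), and macrophage markers in 6 of 13 (-0.08), also with 0 called. What part they have in the values of the 34 genes was not tested.

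For LNA489 against HDL alone, 0 of 34 and 0 of all genes (0%) were called by limma, with 0 of the 34 and 638 genes (3.79%) at an unadjusted p under 0.05, and voom called 0, with 676 at that p. In none of the 34 did the groups fail to overlap, against 1.54% of all genes. The difference was positive in 1 gene, Procr (0.31 ± 0.41), and negative in 33, with a median of -0.56 log2, against -0.05 over all genes, of which 44.8% were higher. Some marker lists lay the other way: 12 of 12 adipocyte, 10 of 10 fibroblast and 10 of 10 striated muscle genes had a positive difference (medians 1.51, 1.55 and 1.71 log2), with 0 called, while 8 of 8 B and plasma cell genes had a negative one (-0.44). Differences were also positive in 12 of 13 macrophage and 8 of 9 erythroid and platelet genes tested (0.50 and 0.38). They were negative in 8 of 10 smooth muscle and 6 of 8 T and NK cell genes tested (-0.29 and -0.08). The part of these cells in the shift was not tested. Other endothelial lists lay both ways. Differences were negative in 18 of 20 other pan-endothelial, 11 of 12 arterial and 3 of 5 venous genes tested (medians -0.63, -0.29 and -0.38 log2). They were positive in 9 of 11 capillary and 4 of 6 lymphatic genes tested (0.82 and 0.55). Pecam1 was -0.57 ± 1.32 (95% interval -3.35 to 2.20), Cdh5 -0.87 ± 1.07 and Vwf -0.46 ± 1.40. Robo4 was at -0.80 ± 0.45 (limma Benjamini-Hochberg adjusted p = 0.92), and -0.39 without LNA489 14, Fli1 at -0.70 ± 0.40 and Rasip1 at -1.17 ± 0.99. The median was -1.37 without HDL 4 and 0.02 without HDL 23. It was 0.18 with the adipocyte mean as a covariate, 0.21 with the mean of 20 other pan-endothelial genes and -1.87 with arrayWeights, each with 0 genes called.

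For HDL against saline, 0 of 34 and 0 of all genes (0%) were called by limma, with 0 of the 34 and 281 genes (1.67%) at an unadjusted p under 0.05, and voom called 0, with 308 at that p. None of the 34 had groups that did not overlap, against 0.973% of all genes. The difference was positive in 33 and negative in 1, Procr (-0.04 ± 0.41), with a median of 0.30 log2, against 0.03 over all genes, of which 54% were higher. Pecam1 was 0.42 ± 1.32 (95% interval -2.35 to 3.19), Cdh5 0.48 ± 1.07 and Vwf 0.13 ± 1.40. Other pan-endothelial genes had a positive difference in 17 of 20 and arterial genes in 10 of 12 (medians 0.27 and 0.26 log2). So had 4 of 5 venous and 6 of 6 lymphatic genes tested (0.20 and 0.99). Capillary genes had a negative difference in 7 of 11 tested (-0.32). Adipocyte markers had a negative difference in 10 of 12 genes (median -0.36 log2) and macrophage markers in 12 of 13 (-0.95), and B and plasma cell markers a positive one in 8 of 8 (1.25), with 0 called. Adrenal cortex markers, high in saline 2, had a negative difference in 6 of 6 genes tested (-1.24), also with 0 called. Erythroid and platelet markers lay both ways, with 5 of 9 genes tested higher and 4 lower (0.26). The part of all these cells was not tested. Cldn5 was at 0.70 ± 0.90 (limma Benjamini-Hochberg adjusted p = 1), Tal1 at 0.67 ± 0.88 and Rasip1 at 0.68 ± 0.99. The median was 1.11 without HDL 4, -0.23 without HDL 23 and -0.25 without saline 1. With the adipocyte mean as a covariate it was 0.10, with the other pan-endothelial mean -0.05 and with arrayWeights 1.54, each with 0 genes called.

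**Figure D5:**
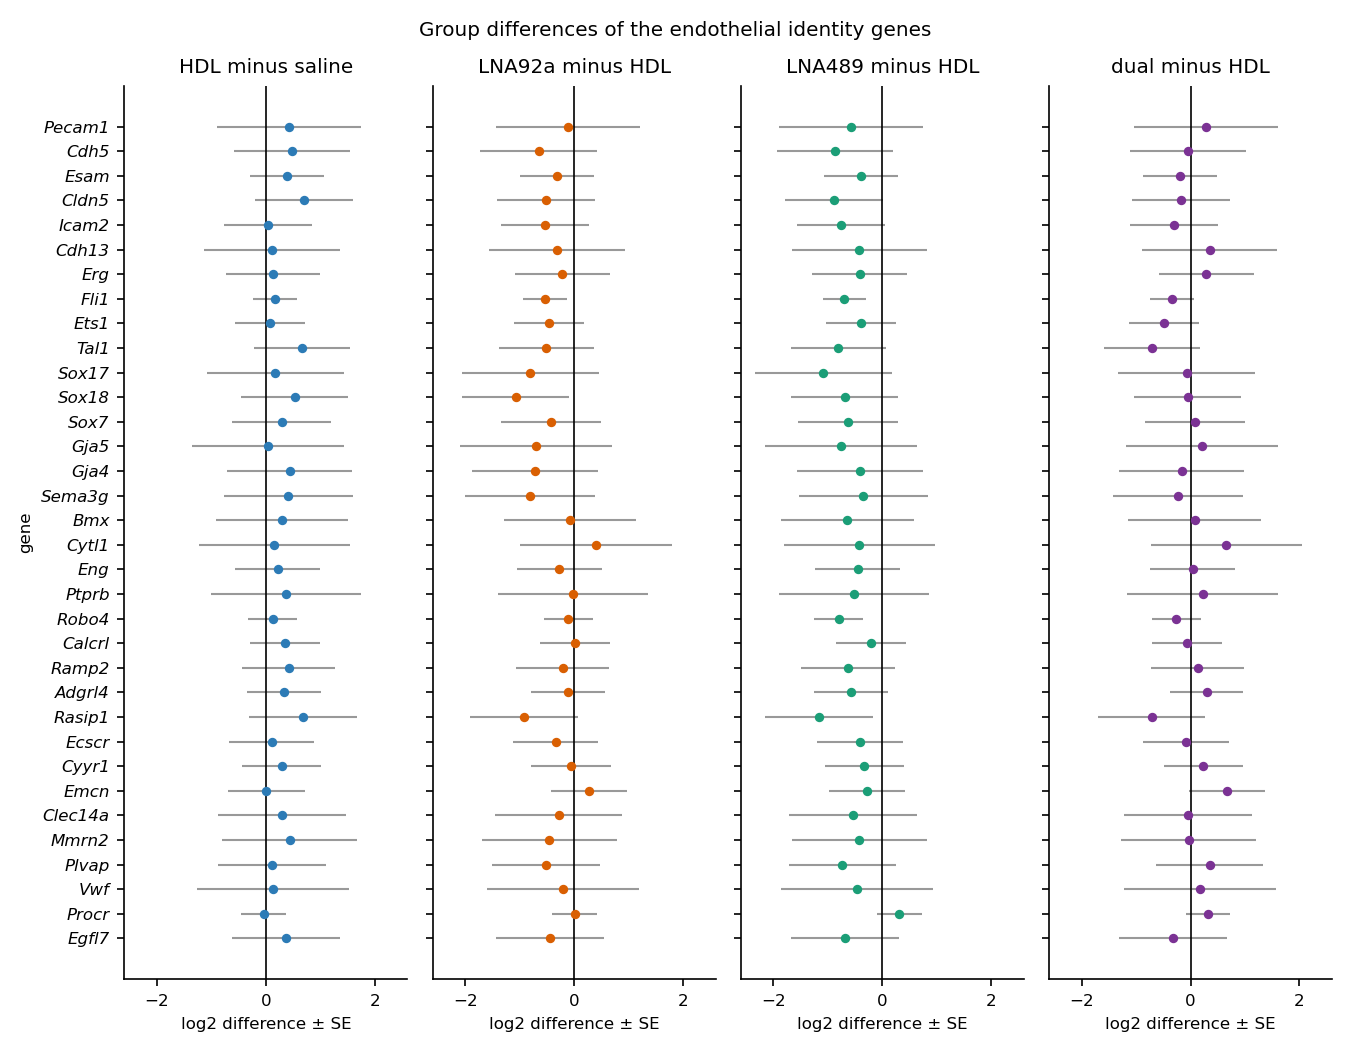
Log2 difference with its standard error for each of the 34 genes in 4 comparisons: HDL minus saline, LNA92a minus HDL, LNA489 minus HDL and dual minus HDL. Most bars cross 0, and the median standard error is 0.95 on the log2 scale, against 0.36 for all genes tested.

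The errors set what these comparisons can show. The median standard error of the 34 genes was 0.95 on the log2 scale, and the interval of Pecam1 in each comparison reached beyond 2 on both sides of 0, so neither a change nor its absence can be read from it. With the other pan-endothelial mean as a covariate, an alternative chosen after seeing the data, the median standard error was 0.29. Then 0 genes were called, and 7 differences had an unadjusted p under 0.05: Cdh13, Mmrn2 and Vwf for LNA489 against HDL (0.64, 0.62 and 0.71), Rasip1 and Tal1 for the dual inhibitors against HDL (-0.67 each), and Sox18 and Rasip1 for LNA92a against HDL (-0.70 and -0.54). These are 8.82%, 5.88% and 5.88% of the 34 genes, against 3.56%, 4.55% and 5.16% of all genes at that p, and for HDL against saline it was 0 of 34, against 3.16%. Array weights gave HDL 23 a weight of 2.65 and HDL 3 one of 2, and HDL 4 one of 0.349 and HDL 11 one of 0.341. They called 0 genes and raised the number of all genes under an unadjusted limma p of 0.05 in each comparison. For dual against HDL these were 4 of the 34 genes (11.8%), against 19.1% of all genes, and for LNA92a against HDL 10 of 34 (29.4%), against 19% of all genes. For LNA489 against HDL they were 20 of 34 (58.8%), against 18.8% of all genes, and for HDL against saline 3 of 34 (8.82%), against 5.34%. Since 22 of 33 genes had r of at least 0.9 with Pecam1, the 34 genes are not independent. Counts of genes passing, and of genes sharing a direction, can then follow from the same few libraries.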

How the data were processed

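Aortic endothelial RNA of 20 mice in 5 groups of 4 was sequenced. The genes and lists were chosen with earlier results of these data known. The authors deposited variance-stabilized values on a log2 scale (20442 genes) and FPKM (32081 genes). The build was GRCm38.p5, and DESeq2 1.18.1, featureCounts 1.15.29, STAR 2.5.3a, cutadapt 1.16 and FastQC are named without roles, per the submitters' processing notes. The strand, annotation release and handling of multiply mapped reads are not given in the sources used here. Coordinates come from GENCODE M21 and RefSeq (GRCm38). Whole reads were recovered from the deposited FPKM and gene length (100% of checked values within 0.1 of a whole number) and gave the depth, 11.6 to 21.4 M reads. No column of another series was present (0).

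Differences were tested with limma 3.58.1 in R 4.3.3 on log2 values, 15 residual degrees of freedom, 2-sided, adjusted by Benjamini-Hochberg over 16848 genes at mean FPKM of at least 0.5. Alternatives were other FPKM filters, log2(FPKM + 0.1) and log2(FPKM + 1), median centring, voom on recovered reads (median-ratio scaling), arrayWeights, the compared libraries alone, covariates and leaving out each library. Values in every library are given for the first gene of each role and those the results turn on; differences for Pecam1, Cdh5, Vwf and the 3 smallest p-values per comparison. The fit was tested on simulated data. No duplicate library was found.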

Additional observations from a re-analysis of the deposited data

Results flagged for a closer look

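3 values stood apart from the other mice of their group in FPKM, of 170 groups checked (34 genes in 5 groups). Chance gives about 1 in 20, and 3 of 170 is a smaller share than that. Procr was 23.8 FPKM in LNA92a 18, against 10.7 to 12.8 in the other LNA92a mice. Plvap was 111 FPKM in LNA489 13, against 5.27 to 22.7 in the other LNA489 mice. Emcn was 8.23 FPKM in LNA489 13, against 1.65 to 2.64 in those mice. LNA489 13 also had the highest summed macrophage markers of any library, 12200 FPKM, and their part in these values was not tested.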

How the results depend on the processing

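All counts of called genes stayed at 0 under every alternative run, but the medians and directions of the 34 genes did not hold. The error of a difference between 2 means of 4 mice was 0.98 log2, and with arrayWeights the median moved by more than that in every comparison, to -1.23 for dual, -1.46 for LNA92a and -1.87 for LNA489 minus HDL and 1.54 for HDL minus saline. Other medians moved by less than this error, several across 0. Of the 34 directions, the adipocyte covariate turned 13, 27, 26 and 11 (in that order of comparisons), the other pan-endothelial covariate 3, 12, 24 and 20, arrayWeights 16, 4, 1 and 1, and leaving out 1 library up to 14, 20, 17 and 28. Among Pecam1, Cdh5, Vwf and the genes of smallest p, those that turned were as follows (log2). With the adipocyte mean as a covariate, LNA489 minus HDL was 0.0284 for Cdh5, 0.48 for Pecam1 and 0.71 for Vwf, LNA92a minus HDL 0.51 for Cdh5, 1.26 for Pecam1, 0.0836 for Rasip1 and 1.32 for Vwf, dual minus HDL 0.62 for Cdh5, and HDL minus saline -0.17 for Vwf. With the other pan-endothelial mean as a covariate, LNA489 minus HDL was 0.0405 for Cdh5, 0.53 for Pecam1 and 0.71 for Vwf, LNA92a minus HDL 0.40 for Pecam1 and 0.34 for Vwf, dual minus HDL 0.007 for Cdh5, and HDL minus saline -0.0935 for Pecam1 and -0.43 for Vwf. Dual minus HDL for Cdh5 was 0.0254 on log2(FPKM + 0.1) and 0.0069 on log2(FPKM + 1), and with arrayWeights it was -0.0691 for Emcn, -1.36 for Pecam1 and -1.53 for Vwf. The cause of these moves and turns was not tested. Leaving out 1 library gave, for dual minus HDL, -0.92 to 1.12 for Pecam1, -0.77 to 0.56 for Cdh5 and -1.11 to 0.99 for Vwf; for LNA92a minus HDL, -1.32 to 0.72, -1.37 to 0.039 and -1.48 to 0.65; for LNA489 minus HDL, -1.78 to 0.26 for Pecam1 and -1.75 to 0.34 for Vwf; and for HDL minus saline, -0.41 to 1.63 for Pecam1, -0.19 to 1.20 for Cdh5, -0.69 to 1.41 for Vwf and -0.0203 to 1.22 for Tal1. No paired analysis was possible because no animal number occurs in 2 groups.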
